A study of Mus musculus with 12 samples.

Results

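The 10 genes described here are Aqp4, Slc1a2, Slc1a3, Kcnj10, Gja1, Gjb6, Glul, Aldh1l1, S100b and Sox9, which are commonly used as markers of resting, homeostatic astrocytes. They were taken by gene symbol from a table of 21956 genes measured by RNA sequencing of mouse brain tissue, and each of the 10 had 1 row in it. All 10 had counts in every library, and none of them was filtered out of any of the 5 comparisons. In a model of intracerebral hemorrhage (ICH), collagenase is injected into the right striatum. In the ICH groups the tissue lay next to the hematoma and was taken at 48 h after ICH. In the sham groups no collagenase was given, and tissue was taken by the same procedure. There were 4 groups of 3 mice. The Sham-Fabp4fl_fl and ICH-Fabp4fl_fl mice carried floxed Fabp4 alleles. The Sham-Fabp4CKO and ICH-Fabp4CKO mice carried the same floxed alleles together with Tmem119-creERT2, an inducible Cre driven by a microglial gene, and received tamoxifen for 7 days, with surgery 14 days after the last dose. Whether the floxed mice without Cre received tamoxifen, and the age of the mice sequenced, are not given in the sources used here. The comparisons ask whether homeostatic astrocyte transcripts differed with ICH, with the loss of microglial Fabp4, and whether the difference with ICH depended on genotype.

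Astrocytes take up glutamate and potassium released by active neurons, convert glutamate to glutamine, and pass ions and metabolites to each other through gap junctions. Their endfeet on blood vessels carry the water channel AQP4. After brain injury astrocytes become reactive and raise intermediate filament genes such as Gfap, whereas the genes for uptake and coupling may follow their own course. In bulk tissue, fewer cells of a type and less RNA per cell cannot be told apart.

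Total counts per library ranged from 15650813 to 22406216, and the 10 genes together held 0.290% to 0.700% of them. Fabp4 was at most 0.105 CPM (counts scaled to the TMM-normalised library size) in the 6 sham libraries, at 3.02, 3.81 and 1.28 CPM in ICH-Fabp4fl_fl and at 0.326, 0.160 and 0.555 CPM in ICH-Fabp4CKO, so the ICH genotypes did not overlap. These are low counts, 46, 63 and 24 against 5, 3 and 10. The log2 difference of -2.94 did not pass (edgeR quasi-likelihood test, adjusted p = 0.295). Some libraries stood apart. ICH-Fabp4fl_fl replicate 1 had 16.3% mitochondrially encoded counts against 7.90% to 11.9% in the other 11, and ICH-Fabp4CKO replicate 1 had 1 count over Ddx3y, Uty, Kdm5d and Eif2s3y, genes of the Y chromosome, against 1302 to 2251. ICH-Fabp4CKO replicate 2 had a summed level of 8 neuron markers of 5202 CPM against 2344 and 1745 CPM in its group, and of 8 infiltrating myeloid markers of 960 CPM against 4688 and 8316 CPM. Within Sham-Fabp4fl_fl, replicate 3 had a summed level of 8 striatal neuron markers of 5722 CPM against 1750 and 2046 CPM in the other two, and of 8 oligodendrocyte markers of 8764 CPM against 14360 and 15300 CPM. The 6 choroid plexus markers summed to 852 to 3265 CPM in Sham-Fabp4fl_fl and to 43.2 to 50.4 CPM in Sham-Fabp4CKO. The part of these differences in the results was not tested.

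In the Fabp4fl_fl mice, 2 of the 10 homeostatic genes, Aqp4 and Aldh1l1, were higher after ICH and 1, Gjb6, was lower, at an adjusted p under 0.05 (edgeR quasi-likelihood test, Benjamini-Hochberg adjustment over 14719 genes). Among all genes tested, 26.2% were called higher and 19.3% lower, so the share of the 10 genes called was not above that background. The median log2 fold change of the 10 genes was 0.06, beside 0.02 over all genes tested. In the Fabp4CKO mice, 3 of the 10 were higher after ICH, namely Aqp4, Aldh1l1 and Sox9, and 0 were lower, against 24.5% and 11.1% of 14737 genes, with a median of 0.17 beside 0.01. These shares are also the background for the counts of other gene lists called with ICH below. The reactive astrocyte genes gave a different picture in the same libraries: 12 of 12 rose in the Fabp4fl_fl mice (median log2 fold change 4.24) and 11 of 12 in the Fabp4CKO mice (median 4.52).

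**Figure D1:**
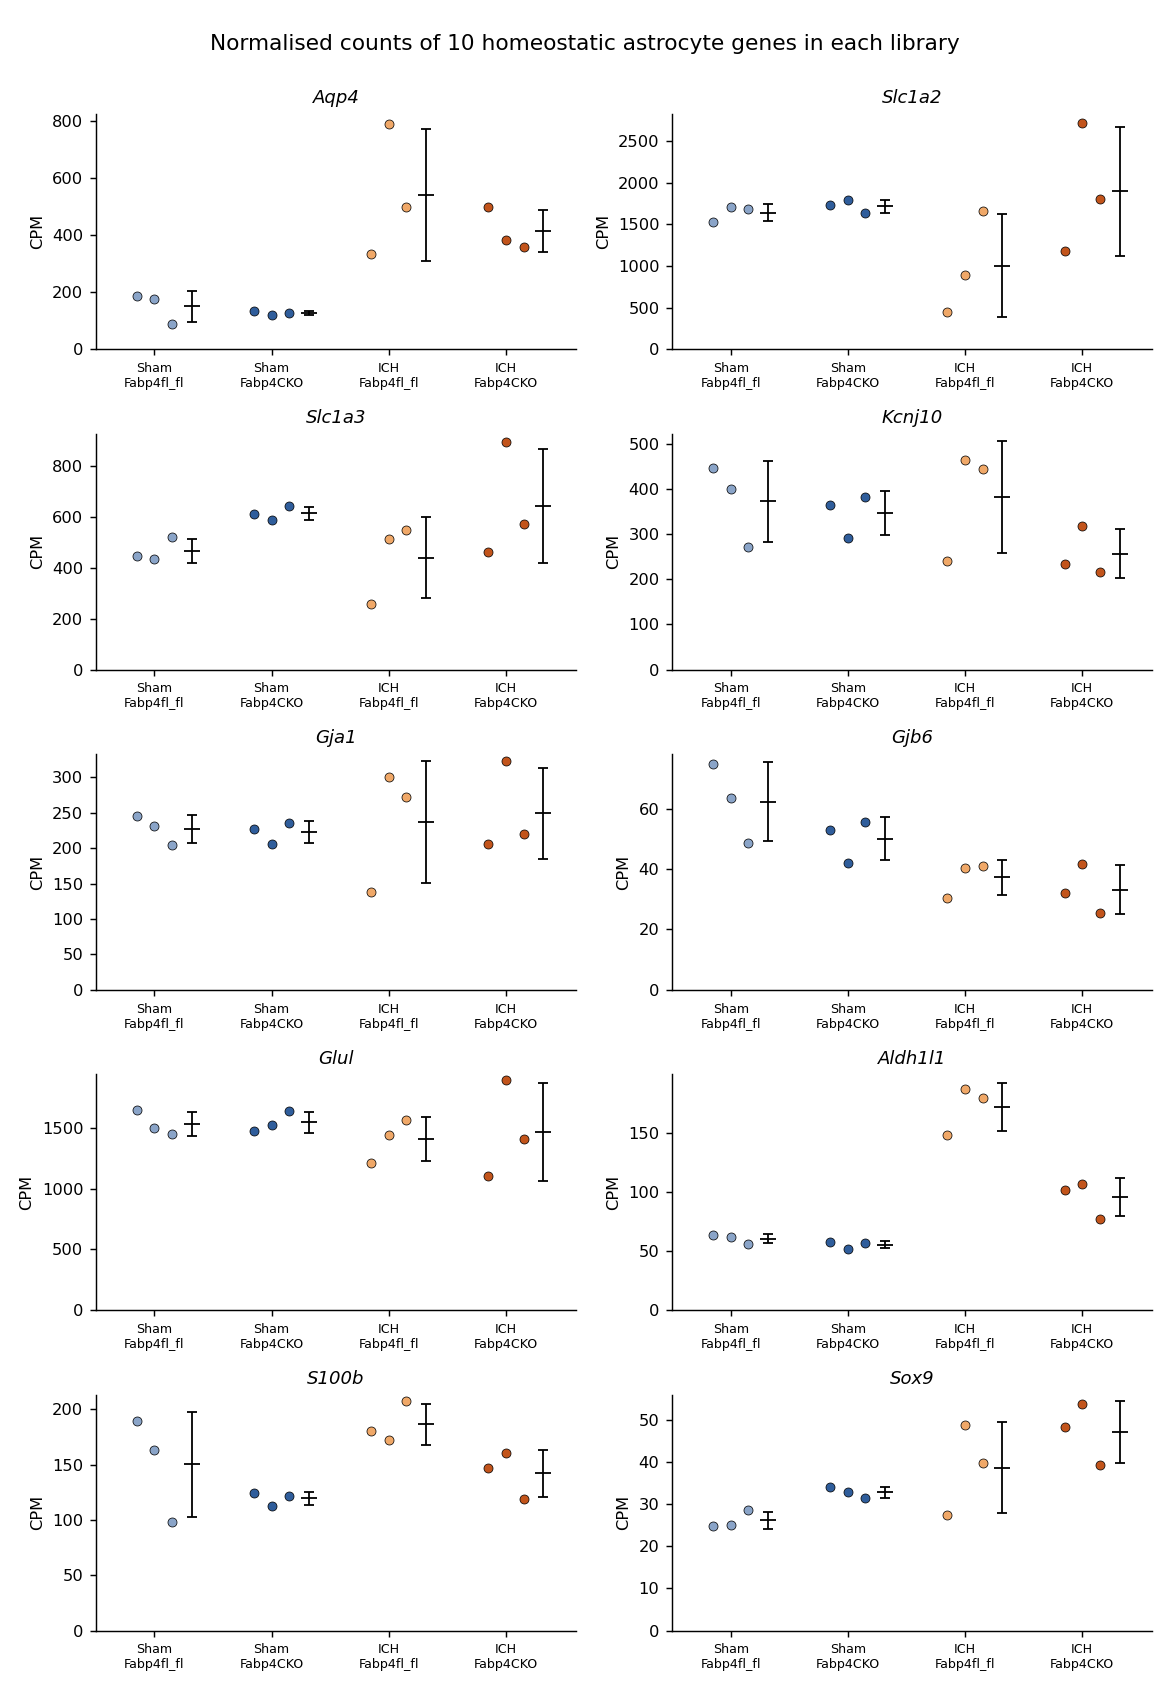
TMM-normalised CPM (linear axis from 0) of each of the 10 genes in each of the 12 libraries, as points in order of replicate number; the bar and whiskers are the mean and SD of the 3 libraries of a group. Aqp4 and Aldh1l1 were higher in every ICH library than in every sham library. Gjb6 was lower after ICH than in sham within each genotype, by a narrow margin in Fabp4CKO mice. Slc1a2 spread from 446 to 2716 CPM over the ICH libraries.

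Aqp4 (ENSMUSG00000024411) encodes the main water channel of the brain, placed on perivascular endfeet. In Fabp4fl_fl mice it was measured at 188, 178 and 88.8 CPM after sham and at 334, 792 and 498 CPM after ICH. In Fabp4CKO mice the sham values were 134, 119 and 127 CPM and the ICH values 500.1, 385 and 359.5 CPM. Every ICH library lay above every sham library, and the 3 ICH-Fabp4fl_fl libraries were spread more widely than the 3 of ICH-Fabp4CKO. Aqp4 rose 3.601-fold in Fabp4fl_fl mice (log2 fold change 1.85, SE 0.40, adjusted p = 0.00928) and 3.32-fold in Fabp4CKO mice (1.73, SE 0.17, adjusted p = 0.00478). After ICH the genotypes overlapped, with a log2 difference of -0.39 (95% interval -1.21 to 0.44).

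Glutamate uptake rests on Slc1a2 and Slc1a3, the genes of the transporters GLT-1 and GLAST. Slc1a2 was the most tightly held of the 10 genes in Sham-Fabp4fl_fl, at 1525, 1711 and 1685 CPM, and after ICH it was at 446, 898 and 1666 CPM. In Fabp4CKO mice it was at 1729, 1792 and 1639 CPM after sham and at 1176, 2716 and 1804 CPM after ICH. In Fabp4fl_fl mice, ICH replicates 1 and 2 lay below the sham range and replicate 3 within it. In Fabp4CKO mice the ICH libraries lay on both sides of the sham range. The log2 fold changes of -0.69 (95% interval -1.70 to 0.31, adjusted p = 0.217) and 0.16 (-0.61 to 0.93, adjusted p = 0.694) did not pass. Without ICH-Fabp4fl_fl replicate 3, the library at 1666 CPM, the Fabp4fl_fl value was -1.27 with an adjusted p of 0.0123. In ICH-Fabp4fl_fl, summed levels of 8 neuron markers were 1360, 2256 and 3715 CPM in replicates 1 to 3, and in ICH-Fabp4CKO they were 2344, 5202 and 1745 CPM. ICH-Fabp4fl_fl replicate 1 had the lowest of both, ICH-Fabp4CKO replicate 2 the highest of both among the ICH libraries, and ICH-Fabp4CKO replicate 3 a low neuron sum beside a high Slc1a2 value, and the part of this in the result was not tested.

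Slc1a3 was at 444, 432 and 520.3 CPM in Sham-Fabp4fl_fl and at 255, 514 and 546 CPM in ICH-Fabp4fl_fl. In Sham-Fabp4CKO it was at 609, 588 and 641 CPM, and in ICH-Fabp4CKO at 463, 892 and 572 CPM. ICH and sham overlapped in both genotypes, with log2 fold changes of -0.07 (95% interval -0.75 to 0.60) and 0.09 (-0.55 to 0.72). Glul, glutamine synthetase, which turns the glutamate taken up into glutamine, was at 1646, 1501 and 1451 CPM in Sham-Fabp4fl_fl and at 1212, 1440 and 1569 CPM in ICH-Fabp4fl_fl. In the Fabp4CKO mice it was at 1475, 1526 and 1638 CPM after sham and at 1101, 1899 and 1407 CPM after ICH. Its log2 fold changes were -0.11 (-0.56 to 0.35) and -0.06 (-0.64 to 0.52), and its groups overlapped in every comparison. Of 6 further genes of glutamate, glutamine and GABA handling, Slc38a3, a glutamine transporter, rose (0.83, adjusted p = 0.0182) and Slc6a11, the GABA transporter GAT-3, fell by 1.94 on the log2 scale (adjusted p = 0.0136) in Fabp4fl_fl mice. Slc6a11 was at 602, 551 and 389 CPM in Sham-Fabp4fl_fl and at 57.8, 116 and 223 CPM in ICH-Fabp4fl_fl, and it also fell in Fabp4CKO mice, by 2.08 (adjusted p = 0.0242). The list of 6 had 1 higher and 1 lower in Fabp4fl_fl mice and 0 higher and 2 lower in Fabp4CKO mice, the second being the glycine transporter gene Slc6a9, named after its value was seen (log2 fold change -0.97, adjusted p = 0.0372).

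Kcnj10 encodes Kir4.1, the inward rectifier through which astrocytes clear potassium. It was at 446, 400.2 and 272 CPM in Sham-Fabp4fl_fl and at 240, 465 and 443 CPM in ICH-Fabp4fl_fl. The Fabp4CKO values were 365, 292 and 383 CPM after sham and 234.5, 318 and 217 CPM after ICH. These ranges overlapped, and neither the log2 fold change of 0.05 (95% interval -0.65 to 0.76) nor that of -0.41 (-0.91 to 0.08, adjusted p = 0.142) passed. Without ICH-Fabp4CKO replicate 2, the highest of its group, the second was -0.61 with an adjusted p of 0.00683. Among 6 other genes of potassium, sodium and bicarbonate transport, 1 was called in Fabp4fl_fl mice: Atp1b2, a subunit of the sodium pump, rose by 0.95 (adjusted p = 0.0141), and in Fabp4CKO mice 0 of 6 were called.

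The gap junction genes went separate ways. Gja1, which encodes connexin 43, was at 245, 232 and 205 CPM in Sham-Fabp4fl_fl and at 139, 300.1 and 272 CPM in ICH-Fabp4fl_fl. In the Fabp4CKO mice it was at 228, 205 and 235 CPM after sham and 205, 323 and 219 CPM after ICH. No separation was seen, with log2 fold changes of 0.08 (95% interval -0.58 to 0.73) and 0.18 (-0.32 to 0.68). Gjb6, which encodes connexin 30, was at 74.8, 63.5 and 48.6 CPM in Sham-Fabp4fl_fl and at 30.6, 40.3 and 40.9 CPM in ICH-Fabp4fl_fl. In Sham-Fabp4CKO it was at 52.8, 41.9 and 55.6 CPM, and in ICH-Fabp4CKO at 32.2, 41.8 and 25.5 CPM. Within each genotype every ICH library was below every sham library, by a narrow margin in Fabp4CKO mice. Gjb6 was 1.66-fold lower after ICH in Fabp4fl_fl mice (log2 fold change -0.73, SE 0.20, adjusted p = 0.0227). In Fabp4CKO mice the value was -0.58 (SE 0.22, adjusted p = 0.0761), and the interaction was 0.11 (95% interval -0.56 to 0.79). The Fabp4fl_fl call was lost without Sham-Fabp4fl_fl replicate 1 or 2 or ICH-Fabp4fl_fl replicate 1 or 2, at adjusted p of 0.0552 to 0.0631. In Fabp4CKO mice Gjb6 was called lower with DESeq2 (adjusted p = 0.0309), with all 12 libraries in 1 edgeR fit (0.0497) and without ICH-Fabp4CKO replicate 2 (-0.79, adjusted p = 0.00412).

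Aldh1l1, a folate enzyme gene widely used to label astrocytes, had groups that stood well apart. It was at 63.6, 61.8 and 56.3 CPM in Sham-Fabp4fl_fl and at 148.5, 187 and 179.9 CPM in ICH-Fabp4fl_fl. In Sham-Fabp4CKO it was at 57.6, 52.0 and 56.9 CPM, and in ICH-Fabp4CKO at 102, 107 and 77.1 CPM. The ICH libraries lay above all sham libraries, and the ICH-Fabp4CKO libraries all lay between the sham and the ICH-Fabp4fl_fl libraries. Aldh1l1 rose 2.87-fold with ICH in Fabp4fl_fl mice (log2 fold change 1.52, SE 0.15, adjusted p = 0.00052) and 1.74-fold in Fabp4CKO mice (0.80, SE 0.16, adjusted p = 0.0153). The second call was lost without any 1 of the Sham-Fabp4CKO libraries or ICH-Fabp4CKO replicate 1, at adjusted p of 0.0616 to 0.0758.

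The promoters of Aldh1l1 and Gjb6 are shown because these members passed the test in opposite directions in Fabp4fl_fl mice. Of the 10 genes, 8 matched a RefSeq promoter table of build GRCm38.p6, and Aqp4 and Sox9 did not. The 250 bases before each annotated start are written 5′ to 3′ on the gene's strand, with CpG dinucleotides in capitals, for Aldh1l1 at chr6:90550543-90550792 on the plus strand and for Gjb6 at chr14:57133612-57133861 on the minus strand.
Aldh1l1: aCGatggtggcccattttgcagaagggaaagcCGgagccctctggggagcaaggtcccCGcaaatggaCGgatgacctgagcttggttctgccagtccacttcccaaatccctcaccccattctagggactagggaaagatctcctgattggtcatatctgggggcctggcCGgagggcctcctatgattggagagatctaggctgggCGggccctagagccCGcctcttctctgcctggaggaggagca
Gjb6: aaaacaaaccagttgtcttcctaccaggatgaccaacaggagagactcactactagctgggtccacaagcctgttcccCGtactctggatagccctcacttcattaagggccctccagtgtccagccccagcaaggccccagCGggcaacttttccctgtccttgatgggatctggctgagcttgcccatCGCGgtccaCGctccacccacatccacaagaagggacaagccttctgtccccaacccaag
The Aldh1l1 window held 7 CpG and was 59.6% G and C, and the Gjb6 window held 5 CpG and was 56.8% G and C. Over the 32851 promoters of the table the median was 6 CpG and 52.4% G and C, so both windows were close to the middle. Strings of known binding motifs were searched on both strands: ACAATG (in 10.7% of all promoters) and ACAAAG (16.5%) for SOX factors, TTGGCA (12.3%) for NFI, TTCNNNGAA (7.02%) for STAT, TGACGT (6.47%) for CREB, TGANTCA (6.75%) for AP-1 and CACGTG (6.02%) for E-box factors, of which TGACGT and CACGTG can share bases. These letters were in neither window, which says nothing about the binding of any factor.

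S100b encodes a calcium-binding protein of astrocytes that some oligodendrocytes also express. It was at 189.6, 163 and 97.8 CPM in Sham-Fabp4fl_fl and at 180.1, 172 and 208 CPM in ICH-Fabp4fl_fl. The Fabp4CKO values were 125, 113 and 121 CPM after sham and 147, 160.3 and 119 CPM after ICH. Sham and ICH overlapped in both genotypes, with log2 fold changes of 0.33 (95% interval -0.27 to 0.92) and 0.27 (-0.09 to 0.63).

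Sox9 encodes a transcription factor that astrocytes keep from their progenitors. It was at 24.9, 25.02 and 28.6 CPM in Sham-Fabp4fl_fl and at 27.3, 48.9 and 39.8 CPM in ICH-Fabp4fl_fl. In Sham-Fabp4CKO it was at 34.1, 32.9 and 31.5 CPM, and in ICH-Fabp4CKO at 48.2, 53.9 and 39.3 CPM. Sox9 rose by 0.54 in Fabp4CKO mice, where the groups did not overlap (SE 0.15, adjusted p = 0.0365), while in Fabp4fl_fl mice ICH replicate 1 lay within the sham range and the value of 0.58 (SE 0.21, adjusted p = 0.0569) did not pass. Without that library, which had the highest mitochondrial share, it was 0.76 with an adjusted p of 0.012, and the value also passed with edgeR's exact test (adjusted p = 0.0411) and with all 12 libraries in 1 edgeR fit (0.0203). The Fabp4CKO call was lost without any 1 of the Sham-Fabp4CKO libraries or ICH-Fabp4CKO replicate 1 (adjusted p of 0.113 to 0.122) and on total counts without TMM (0.0842). The interaction was -0.08 (95% interval -0.66 to 0.50). Of 8 other astrocyte transcription factors, Nfia, a factor of astrocyte fate, rose by 0.67 (adjusted p = 0.0231) and Hes5, a Notch target, fell by 1.79 (adjusted p = 0.00734) in Fabp4fl_fl mice, so 1 was higher and 1 lower. Hes5 had low counts, 76, 80 and 95 in Sham-Fabp4fl_fl and 11, 21 and 32 in ICH-Fabp4fl_fl. In Fabp4CKO mice 2 were higher and 0 lower. There Hes5 did not pass, at -1.335 (adjusted p = 0.227), with counts of 7, 99 and 15 in ICH-Fabp4CKO.

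After ICH, 0 of the 10 genes passed between Fabp4CKO and Fabp4fl_fl in either direction, and among all 14600 genes tested 0% were called higher and 0% lower by edgeR's quasi-likelihood test, with 1777 at an unadjusted p under 0.05. DESeq2 called 255 higher and 323 lower. Aldh1l1 was the member farthest below 0, at a log2 difference of -0.85 (95% interval -1.33 to -0.38, adjusted p = 0.295), with every ICH-Fabp4CKO library below every ICH-Fabp4fl_fl library. It passed with DESeq2 (adjusted p = 0.00404) and with all 12 libraries in 1 edgeR fit (0.0208). S100b also did not overlap, at -0.40 (-0.85 to 0.06, adjusted p = 0.452). The share of all genes without overlap between the ICH genotypes was not counted. Full separation of 3 against 3 libraries has an exact permutation p of 0.1. Slc1a2 was the member farthest above 0, at 0.92 (-0.39 to 2.22, adjusted p = 0.533), with overlapping groups. Gfap was at 4127, 4226 and 4094 CPM in ICH-Fabp4fl_fl and at 3178, 2917 and 2385 CPM in ICH-Fabp4CKO, a log2 difference of -0.56 (adjusted p = 0.436). Beside these, the sums of 8 oligodendrocyte markers were 18970 to 27300 CPM in ICH-Fabp4fl_fl and 7440 to 11740 CPM in ICH-Fabp4CKO, and those of 8 endothelial markers were 587 to 1166 CPM and 322 to 419 CPM. Microglial marker sums were 1590 to 1734 CPM in ICH-Fabp4fl_fl and 1779 to 4745 CPM in ICH-Fabp4CKO, also without overlap, and infiltrating myeloid sums, which overlapped, were 688 to 1332 CPM and 960 to 8316 CPM. The part of these sums in the lower Aldh1l1 and S100b values was not tested.

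**Figure D2:**
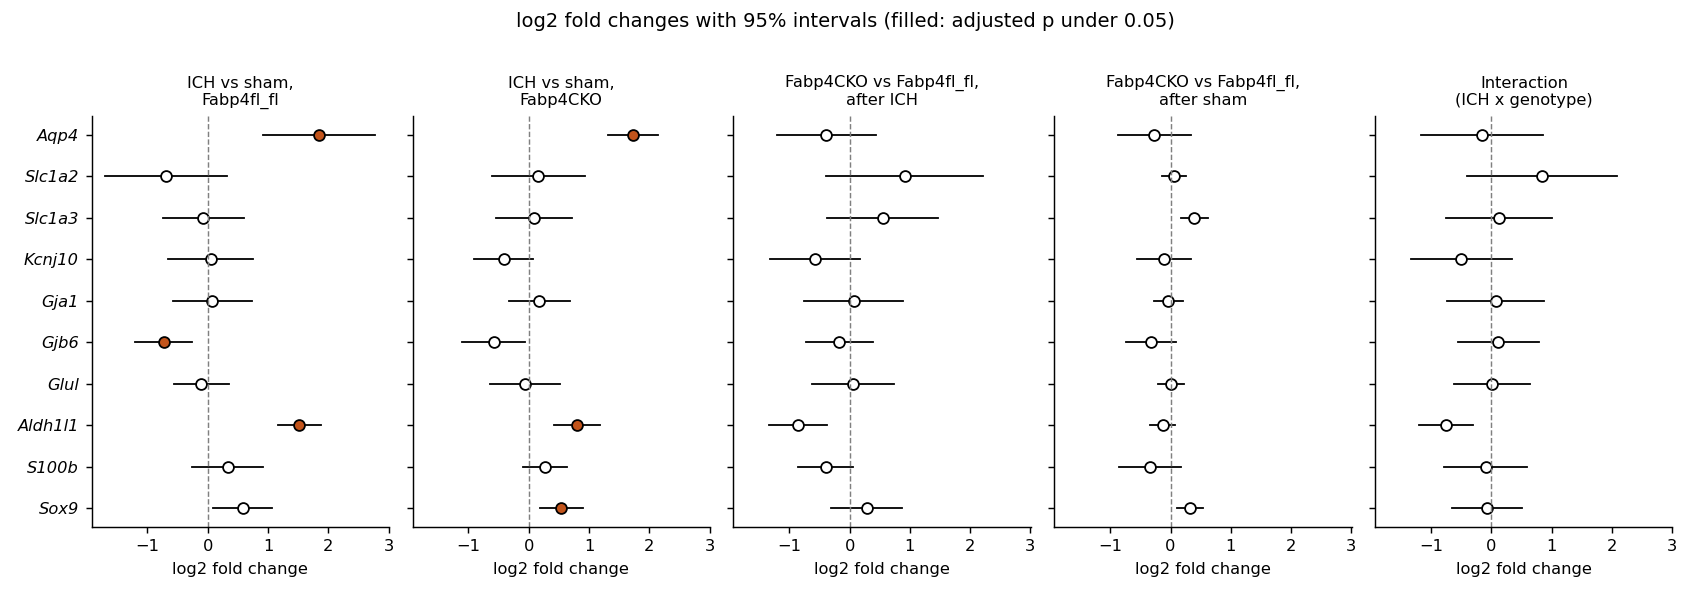
log2 fold changes (horizontal axis) of the 10 genes in 5 comparisons, with 95% intervals from edgeR's quasi-likelihood fit as lines and filled points for an adjusted p under 0.05. Filled points stand for Aqp4, Aldh1l1 and Gjb6 in the first panel and Aqp4, Aldh1l1 and Sox9 in the second, and there are 0 in the other panels.

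After sham, 0 of the 10 genes passed between the genotypes in either direction, where 0% of 14395 genes were called higher and 0.111% lower. Slc1a3 was higher in every Sham-Fabp4CKO library than in every Sham-Fabp4fl_fl library, by 0.39 on the log2 scale (95% interval 0.17 to 0.61, adjusted p = 0.361), and so was Sox9, by 0.32 (0.11 to 0.53, adjusted p = 0.423). The other 8 overlapped, and for Glul the difference was 0.01 (-0.20 to 0.22). Full separation of 3 against 3 libraries has an exact permutation p of 0.1, the smallest possible. The share of all genes that separated in this way was not counted, so separation alone is not read as a difference. Sham-Fabp4fl_fl replicate 3 was the lowest of its group for Aqp4, Kcnj10, Gjb6 and S100b and the highest for Slc1a3. Without it, Slc1a3 (0.48, adjusted p = 0.00413) and Sox9 (0.39, adjusted p = 0.0181) were called higher and Aqp4 (-0.54, adjusted p = 0.00308), S100b (-0.57, adjusted p = 0.00383) and Gjb6 (-0.48, adjusted p = 0.0312) lower in Fabp4CKO, and over all genes the calls went from 0 to 1531 higher and from 16 to 1331 lower. The calls of these 5 genes after sham thus depended on 1 library. Its striatal neuron sum of 5722 CPM lay within the Sham-Fabp4CKO range of 3794 to 6691 CPM, whereas the Sham-Fabp4fl_fl libraries that remained, at 1750 and 2046 CPM, lay below that range, and their oligodendrocyte sums of 14360 and 15300 CPM lay above the Sham-Fabp4CKO range of 10550 to 11370 CPM. The fit without replicate 3 therefore compared libraries of differing tissue makeup, whose part in these calls was not tested.

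The interaction asks whether the ICH difference was unequal between genotypes, and 0 of the 10 genes passed in either direction, where 0.0133% of 15089 genes were called above 0 and 0.00663% below. Aldh1l1 had the lowest p of the 10, at -0.76 (95% interval -1.21 to -0.31, adjusted p = 0.288), and DESeq2 gave it an adjusted p of 0.042. For Slc1a2 the interaction was 0.83 with an interval of -0.41 to 2.07, the widest of the 10. For Aqp4 it was -0.16 (-1.18 to 0.86), and unequal responses in either direction lay within that interval.

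Ratios between members within a library do not depend on library size or on normalisation, and they were read only between libraries, since the genes differ in length. The ratio of Gja1 to Gjb6 counts was 3.27, 3.65 and 4.22 in Sham-Fabp4fl_fl and 4.54, 7.45 and 6.67 in ICH-Fabp4fl_fl. It was 4.31, 4.90 and 4.23 in Sham-Fabp4CKO and 6.37, 7.73 and 8.61 in ICH-Fabp4CKO. Within each genotype every ICH library had more Gja1 per Gjb6 than every sham library.

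The ratio of S100b to Aldh1l1 went the other way, from 2.98, 2.65 and 1.74 in Sham-Fabp4fl_fl to 1.21, 0.920 and 1.15 in ICH-Fabp4fl_fl. In the Fabp4CKO mice it was 2.17, 2.17 and 2.13 after sham and 1.44, 1.496 and 1.55 after ICH. The ICH libraries were below the sham libraries within each genotype, and the ICH-Fabp4CKO libraries were all above the ICH-Fabp4fl_fl libraries (exact permutation p = 0.1, the smallest that 3 against 3 can give). The ratio of Aqp4 to Slc1a2 was 0.123, 0.104 and 0.0527 in Sham-Fabp4fl_fl and 0.749, 0.882 and 0.299 in ICH-Fabp4fl_fl. It was 0.0776, 0.0664 and 0.0773 in Sham-Fabp4CKO and 0.425, 0.142 and 0.199 in ICH-Fabp4CKO, again without overlap between ICH and sham. The ratio of Slc1a2 to Slc1a3 was 3.44, 3.96 and 3.24 in Sham-Fabp4fl_fl and 1.75, 1.75 and 3.05 in ICH-Fabp4fl_fl, and 2.84, 3.05 and 2.56 against 2.54, 3.04 and 3.15 in Fabp4CKO mice, where it overlapped.

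Averaged over both genotypes, the ICH minus sham differences on the log2 scale were 0.74 for Gja1 to Gjb6, 2.18 for Aqp4 to Slc1a2, -0.83 for S100b to Aldh1l1 and -0.35 for Slc1a2 to Slc1a3. In Fabp4fl_fl mice each of the first 3 ratios pairs a member that was called with one that was not. The same holds in Fabp4CKO mice except for Gja1 to Gjb6, of which neither was called. The ratios restate the values of their members and are no further evidence of them.

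**Figure D3:**
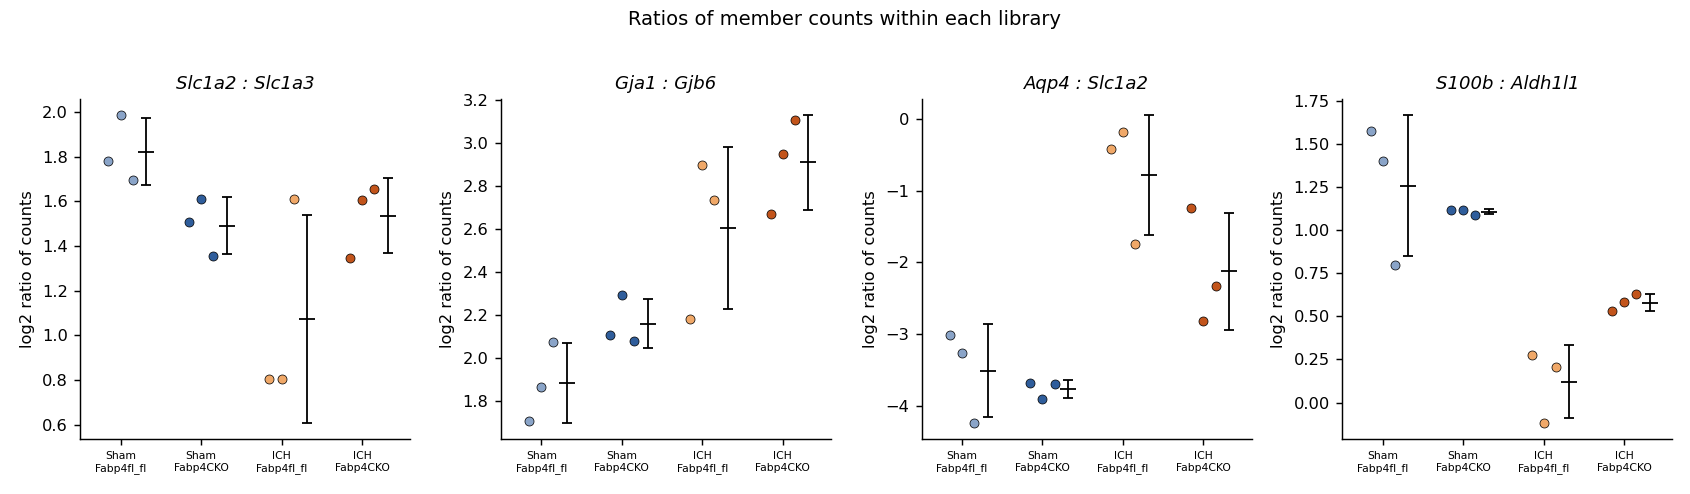
log2 ratios of the counts of 2 members within each library (vertical axis, not from 0), as points in order of replicate number, with the mean and SD of each group of 3. ICH and sham libraries did not overlap within either genotype for Gja1 to Gjb6, Aqp4 to Slc1a2 and S100b to Aldh1l1, and Slc1a2 to Slc1a3 overlapped in Fabp4CKO mice.

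Per kilobase of annotated exon (union of exons in GENCODE vM21), Glul was the most abundant of the 10 in Sham-Fabp4fl_fl, at 461 ± 30.5 CPM per kb (SD, n = 3). Slc1a2 followed at 125 ± 7.67, S100b at 101 ± 31.9, Kcnj10 at 68.9 ± 16.7 and Slc1a3 at 54.5 ± 5.64 CPM per kb, each overlapping its neighbour in this order. Aqp4 at 24.3 ± 8.75, Gjb6 at 23.3 ± 4.93 and Gja1 at 22.1 ± 1.97 CPM per kb formed the next step and overlapped each other. Aldh1l1 at 13.4 ± 0.838 and Sox9 at 6.33 ± 0.509 CPM per kb stood apart below them. In ICH-Fabp4fl_fl Glul and Sox9 kept the ends of the order, while Aqp4 took the third place at 86.8 ± 37.3 CPM per kb and overlapped Slc1a2, Kcnj10 and S100b. In ICH-Fabp4CKO it took the fifth place at 66.6 ± 12.02 CPM per kb, between Slc1a3 and Kcnj10.

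The spread between libraries was itself unequal. The coefficient of variation of the 10 genes ran from 6.12% for Slc1a2 to 36.01% for Aqp4 in Sham-Fabp4fl_fl and from 3.91% for Sox9 to 14.5% for Gjb6 in Sham-Fabp4CKO. After ICH it ran from 9.95% for S100b to 61.5% for Slc1a2 in Fabp4fl_fl mice and from 14.8% for S100b to 40.8% for Slc1a2 in Fabp4CKO mice. The summed level of the 10 genes was 4452 to 4846 CPM in Sham-Fabp4fl_fl, 4762 to 4927 CPM in Sham-Fabp4CKO, 3012 to 5461 CPM in ICH-Fabp4fl_fl and 4009 to 6896 CPM in ICH-Fabp4CKO, so the ICH ranges enclosed the sham ranges. A single sum over the 10 genes thus did not separate ICH from sham, while Aqp4, Aldh1l1 and Gjb6 each did within both genotypes. Slc1a2 and Glul, neither of them called with ICH, had the highest CPM of the 10 in every library and weighed most in this sum. For Gjb6 in Fabp4CKO mice the nearest ICH and sham libraries were at 41.75 and 41.87 CPM. There the quasi-likelihood test did not pass (adjusted p = 0.0761). The share of all genes that separated within both genotypes was not counted.

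Centred log2 levels over the 12 libraries were used to describe which genes resembled the 10. Gja1 was the member closest to the mean profile of the 10, with a root mean square distance of 0.137 on the log2 scale, and Aqp4 the farthest, at 0.826. Among 15079 other genes, Myo6 (0.0977), Elovl5 (0.131), Thap12 (0.132), Ednrb (0.141) and Mlc1 (0.141) were nearest to that mean profile. The gene nearest to Aqp4 itself was Slc14a1 (0.197), a urea transporter gene, and the nearest to both Slc1a2 (0.245) and Slc1a3 (0.167) was Plpp3. These distances describe the 12 libraries, which differ in tissue makeup.

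**Figure D4:**
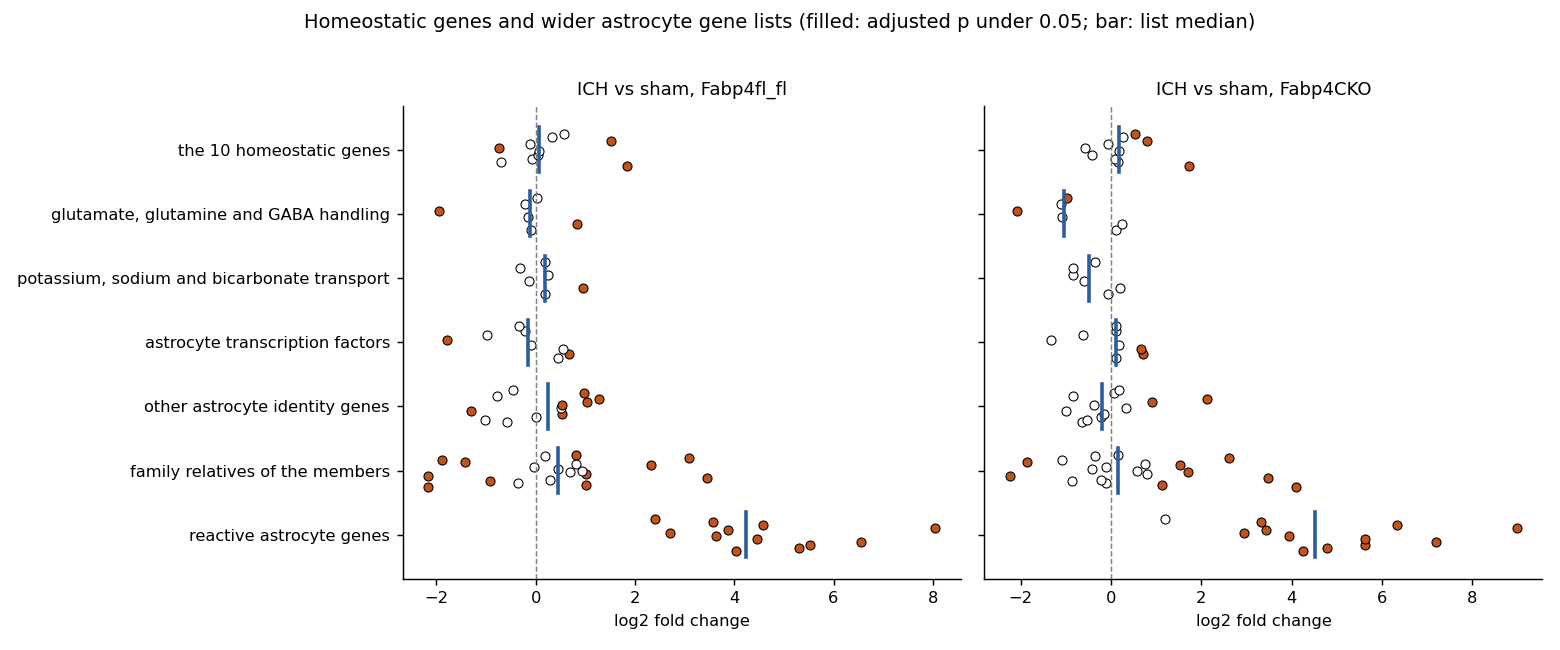
log2 fold changes with ICH (horizontal axis) of the 10 genes and of 6 wider astrocyte lists in the Fabp4fl_fl (left) and Fabp4CKO (right) mice, 1 point per gene, filled for an adjusted p under 0.05 and with a bar at the list's median. The 10 homeostatic genes lie on both sides of 0, with medians of 0.06 and 0.17, while the reactive genes lie at 1.21 and above.

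Other genes used to identify astrocytes were mixed too. Of 12 such genes, 5 were higher and 1 lower with ICH in Fabp4fl_fl mice, with Mertk, a phagocytic receptor gene that microglia also express, at the top (1.29, adjusted p = 0.00058) and Cldn10, a claudin gene, at the bottom (-1.31, adjusted p = 0.0382). In Fabp4CKO mice 2 of the 12 were higher and 0 lower. Among 19 family relatives of the 10 genes, 6 were higher and 5 lower in Fabp4fl_fl mice and 6 were higher and 2 lower in Fabp4CKO mice. Over all genes tested, 26.2% were called higher and 19.3% lower in Fabp4fl_fl mice, and 24.5% and 11.1% in Fabp4CKO mice. The counts of the 19 relatives were near those shares. Slc1a5, a neutral amino acid transporter of the family of Slc1a2, rose from 2.63, 1.93 and 1.31 CPM in Sham-Fabp4fl_fl to 24.5, 26.1 and 13.1 CPM in ICH-Fabp4fl_fl (log2 fold change 3.44, adjusted p = 0.000661). Aqp1, the water channel of the choroid plexus, was at 5.31, 10.8 and 17.3 CPM in Sham-Fabp4fl_fl. In Sham-Fabp4CKO it was at 0.281 to 0.318 CPM, from 6, 7 and 6 counts. After ICH it was at 3.81, 2.66 and 0.903 CPM in Fabp4fl_fl mice and at 3.91, 2.08 and 9.27 CPM in Fabp4CKO mice. The genotypes thus overlapped after ICH and differed after sham. Its log2 difference with ICH was -2.17 (adjusted p = 0.0211) in Fabp4fl_fl mice and 4.10 (adjusted p = 0.00915) in Fabp4CKO mice. The interaction of 6.2 did not pass (edgeR quasi-likelihood test, adjusted p = 0.0755). Aqp1 and the choroid plexus sums were both higher in Sham-Fabp4fl_fl than in Sham-Fabp4CKO. In Fabp4CKO mice Aqp1 was higher after ICH. The choroid plexus sums there were 15.2 to 22.5 CPM after ICH against 43.2 to 50.4 CPM after sham. The part of tissue makeup in the Aqp1 values was not tested. Aqp4 overlapped between the sham groups.

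Within the reactive list, Timp1 had the highest value, at 0.718, 0.221 and 0.788 CPM in Sham-Fabp4fl_fl and 185.9, 199.6 and 77.1 CPM in ICH-Fabp4fl_fl (log2 fold change 8.05, adjusted p = 0.000305). Gfap rose by 4.04 (adjusted p = 0.000665) in Fabp4fl_fl mice and by 4.26 (adjusted p = 0.00439) in Fabp4CKO mice. Some of these genes are also expressed by myeloid and vascular cells, whose marker lists rose in the same libraries: 8 of 8 infiltrating myeloid and 7 of 7 microglial markers in both genotypes, and 8 of 8 endothelial markers in Fabp4fl_fl and 3 of 8 in Fabp4CKO mice. Over all genes, 26.2% and 24.5% were called higher in the Fabp4fl_fl and Fabp4CKO mice. Neuron markers were called lower for 6 of 8 in Fabp4fl_fl mice and 0 of 8 in Fabp4CKO mice, beside 19.3% and 11.1% of all genes. Their median log2 fold changes were close, at -1.2 and -1.1, and 0 of 8 passed in the interaction. Striatal neuron markers were called lower for 0 of 8 and 3 of 8, with medians of -0.37 and -1.15, and 0 of 8 passed in the interaction. The part of this makeup in the levels of the 10 genes was not tested.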

How the data were processed

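Poly(A) RNA of brain tissue from 12 mice, 3 per group, was sequenced. The tissue lay next to the hematoma in the ICH groups and was taken by the same procedure in the sham groups. The authors deposited expected counts, estimated per gene from aligned reads and not normalized. Between 7.36% and 8.69% of values per library were not whole, and they were rounded. The submitters' processing notes name Bowtie2 2.2.8, HISAT2, StringTie 1.3.1 and DESeq2, without roles. The genome build and the counter are not given in the sources used here. Without a stated strand or counting rule, overlapping genes cannot be told apart.

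Groups came from the sample titles. Genes passing edgeR's filterByExpr (minimum count 10, total 15) were tested with TMM normalization and the quasi-likelihood F-test in edgeR 4.0.16 (R 4.3.3) on the libraries compared, or all 12 for the interaction, with Benjamini-Hochberg adjustment and a threshold of 0.05. The scripts were tested on simulated data. The 10 genes and the lists were chosen with earlier results of these data known. The list of water channel partners is not reported here. Named genes were the 10, Gfap, Fabp4, in each wider list the genes with the highest and lowest log2 fold change among those called with ICH in Fabp4fl_fl mice, and the 5 nearest the mean profile. The p-values set the difference between groups against the spread between libraries of a group, which includes differences in tissue makeup. Alternatives were RLE normalization, total counts, DESeq2 1.42.0, edgeR's exact test, other filters, a replicate block, 1 fit of all libraries, no mitochondrial genes and each library left out. A fit without ICH-Fabp4fl_fl replicate 1 and ICH-Fabp4CKO replicate 1, which stood apart, was added after the data were seen. Ratios were compared by a two-sided exact permutation test, whose smallest p with 3 against 3 is 0.1. Figures used matplotlib.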

Additional observations from a re-analysis of the deposited data

How the results depend on the processing

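Over 830 refitted log2 fold changes of the 10 genes, 45 had the other sign from the reported value, all for genes not called in either setting, and 34 changed their side of the threshold (17 gained, 17 lost). The Aqp4 calls with ICH held in both genotypes and the Aldh1l1 call in Fabp4fl_fl mice held in 16 of 16 alternatives. Leaving out 1 library gave 0 to 2 genes lower and 2 to 3 higher with ICH in Fabp4fl_fl mice, 1 to 3 higher and 0 to 2 lower in Fabp4CKO mice, and 0 to 2 higher and 0 to 3 lower between sham genotypes. For ICH against sham within a genotype, leaving out both ICH-Fabp4fl_fl replicate 1 and ICH-Fabp4CKO replicate 1 removes only the library in that comparison. It repeats a fit with 1 library left out and is counted again in the totals above. In that fit 0 were lower in Fabp4fl_fl mice and 1 (Aqp4) was higher in Fabp4CKO mice. DESeq2 called 1 lower between the ICH genotypes, 1 lower with ICH in Fabp4CKO mice and 1 lower in the interaction, and the fit of all 12 libraries also called 1 lower in each of the first pair. The gene was Gjb6 with ICH in Fabp4CKO mice and Aldh1l1 elsewhere. The cause of these changes was not tested.

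Over all genes, 3862 higher and 2845 lower with ICH in Fabp4fl_fl mice went to between 2633 and 4309 higher and 1465 (without ICH-Fabp4fl_fl replicate 2) and 3856 (without replicate 3) lower when 1 library was left out. The calls between ICH genotypes went from 0 and 0 (higher, lower) to 255 and 323 with DESeq2, 129 and 137 with the exact test and 154 and 208 with all libraries in 1 fit. Between sham genotypes they went from 0 and 16 to 11 and 139 with DESeq2, 9 and 143 with the exact test and 0 and 2 with at least 10 counts in every library. With ICH in Fabp4CKO mice, 3605 and 1642 went to 4154 and 3541 with DESeq2, and to between 701 and 5203 higher and 50 and 4896 lower when 1 library was left out. The interaction went from 2 and 1 to 183 and 83 with DESeq2 and to 260 and 111 without ICH-Fabp4CKO replicate 2.

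The samples were not treated as paired by replicate number. With group means removed, correlations of same-numbered libraries ran from -0.575 to 0.311 over the comparisons of 2 groups. For ICH against sham in Fabp4fl_fl mice they were 0.0228 to 0.197, with a mean of 0.116 beside -0.0572 for other pairs. With 3 libraries per group these values cannot decide whether the numbers mark pairs. With the replicate block, 2 genes were higher with ICH in Fabp4fl_fl mice and 1 lower, and 2 were higher in Fabp4CKO mice, Sox9 being at an adjusted p of 0.0604. With 3 mice per group, a count of 0 called members between genotypes leaves wide intervals.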
